A study of Mus musculus with 5 samples.

Results

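The sites of the transcription factors Hand1 and Foxf1 were described at 9 genes of the T-box family: Tbx1, Tbx2, Tbx3, Tbx4, Tbx5, Tbx6, Tbx18, Tbx20 and Eomes. A site was a line of a deposited peak list from chromatin immunoprecipitation sequencing (ChIP-seq), and it was assigned to a gene when its summit lay in the gene or within 100 kb of either end. By this rule 13 of the 1134 lines of the Hand1 list (1.15%, 95% exact binomial interval 0.612% to 1.95%) and 16 of the 5703 lines of the Foxf1 list (0.281%, interval 0.160% to 0.455%) belonged to the 9 genes. Mouse E14 embryonic stem cells, an established line, had been differentiated towards the cardiac lineage. They passed 48 h as embryoid bodies and then 40 h as new aggregates with 10 ng/ml activin A, 0.3 ng/ml BMP4 and 5 ng/ml VEGF, which gave the stage called MES. A further 32 h as a monolayer with 5 ng/ml VEGF, 10 ng/ml basic FGF and 25 ng/ml FGF10 gave the stage called CP. Hand1 was precipitated at MES from cells with an HA tag (a short peptide for which an antibody exists) knocked into the Hand1 gene, and Foxf1 at CP from an inducible HA-tagged Foxf1 overexpression line, so factor, stage and manner of expression changed together and cannot be told apart. The groups held 1 Hand1 sample, 2 Foxf1 samples, 1 MES input and 1 CP input, and 1 list per factor was analysed here. The Foxf1 list was deposited with replicate 1, and whether it pools both replicates is not given in the sources used here. Whether each line was 1 clone, and how Foxf1 was induced, is not given in the sources used here. Expression values were not used here, so the stages were not checked against marker genes.

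T-box proteins bind DNA through a shared domain, the T-box, and act as activators or repressors in the patterning of mesoderm, limbs and heart. Hand1, a basic helix-loop-helix factor, binds E-box sequences as a dimer. Foxf1, a forkhead factor, is known for its role in lateral plate and splanchnic mesoderm. Eomes acts in the earliest mesoderm and Tbx6 in paraxial mesoderm. Tbx1 acts in the pharyngeal arches and the second heart field, Tbx5 in the forelimb and heart, Tbx4 in the hindlimb, and Tbx20 in the heart. Tbx2 and Tbx3 are repressors that keep parts of the heart tube from chamber differentiation, and Tbx18 marks the epicardium and part of the sinus node.

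Of the 9 genes, 6 have a start in the RefSeq promoter table used here (build GRCm38.p6), namely Tbx1, Tbx4, Tbx6, Tbx18, Tbx20 and Eomes. The 250 bases before the annotated start are shown for 4 promoters, which are those of Eomes and Tbx6, the members with a Foxf1 peak closest to the printed bases, and those of the neighbouring genes Gm33460 and Ypel3, which lay wholly under a Foxf1 peak. Capitals mark matches on either strand to the E-box CANNTG, which includes CATCTG, to the forkhead sequence TGTTTAC or to the T-box sequence AGGTGT.
Eomes promoter, chr9:118477939-118478188, + strand: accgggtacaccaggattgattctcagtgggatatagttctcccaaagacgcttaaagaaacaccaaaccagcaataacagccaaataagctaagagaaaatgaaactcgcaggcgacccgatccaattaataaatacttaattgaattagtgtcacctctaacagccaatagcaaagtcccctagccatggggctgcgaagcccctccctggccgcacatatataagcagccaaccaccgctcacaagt
Gm33460 promoter, chr9:118489780-118490029, - strand: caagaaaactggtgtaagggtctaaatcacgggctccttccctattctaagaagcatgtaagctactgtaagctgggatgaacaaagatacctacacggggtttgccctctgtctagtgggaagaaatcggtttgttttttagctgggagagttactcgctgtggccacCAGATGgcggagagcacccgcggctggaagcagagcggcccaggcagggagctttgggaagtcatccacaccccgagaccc
Tbx6 promoter, chr7:126781233-126781482, + strand: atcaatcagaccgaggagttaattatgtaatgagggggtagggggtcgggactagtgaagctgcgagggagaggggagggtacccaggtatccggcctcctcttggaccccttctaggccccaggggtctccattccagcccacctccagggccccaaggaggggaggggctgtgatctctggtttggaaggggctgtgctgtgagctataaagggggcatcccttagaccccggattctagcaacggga
Ypel3 promoter, chr7:126776713-126776962, + strand: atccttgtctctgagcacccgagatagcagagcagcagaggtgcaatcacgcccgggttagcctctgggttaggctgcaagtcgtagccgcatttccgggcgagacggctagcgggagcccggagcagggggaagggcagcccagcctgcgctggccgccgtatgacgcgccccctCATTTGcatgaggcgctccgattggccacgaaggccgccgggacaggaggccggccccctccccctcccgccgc
The Eomes and Tbx6 stretches held none of the 4 motifs. Gm33460 is a long non-coding RNA (lncRNA) gene beside Eomes, and its stretch held 1 E-box, read as CATCTG on the opposite strand, 81 bp before the start. The E-box took up bases 170 to 175 of the stretch, and the Foxf1 summit lay at base 142, 109 bp before the start. The Ypel3 stretch held 1 E-box, CATTTG, 74 bp before the start, and the Foxf1 summit lay 54 bp beyond the start. Among 32851 promoter stretches of the same length, 66.2% held CANNTG, 14.4% CATCTG, 3.17% TGTTTAC and 11.8% AGGTGT. A match describes the letters and not a bound site.

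A Hand1 summit was listed for 5 of the 9 genes and a Foxf1 summit for 8 of the 9. Among all 21883 protein-coding genes of the gene table, 9.90% had a Hand1 summit and 53.3% a Foxf1 summit by the same rule. Hand1 summits lay at Tbx1, Tbx2, Tbx3, Tbx4 and Eomes, and each of these also had a Foxf1 summit. Among all protein-coding genes 2167 had a Hand1 summit, and 1674 of these (7.65% of all protein-coding genes) also had a Foxf1 summit. Foxf1 summits alone were listed at Tbx5, Tbx6 and Tbx18, and neither list had one at Tbx20. The windows are not independent, since 44.4 kb separate Tbx2 from Tbx4 and 112 kb separate Tbx3 from Tbx5. All 4 Hand1 and all 4 Foxf1 summits of Tbx4 were also those of Tbx2, and the 1 Foxf1 summit of Tbx5 was that of Tbx3. The 9 genes thus form 7 loci.

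**Figure D1:**
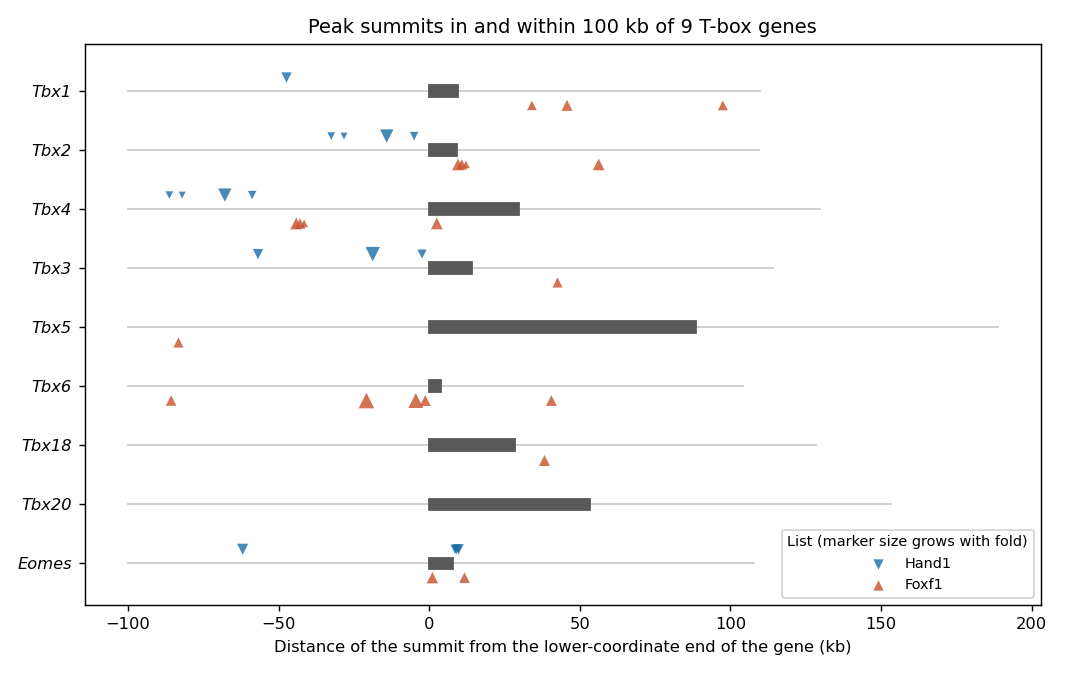
Position of each summit of the Hand1 list (blue, above the line) and the Foxf1 list (orange, below) relative to the lower-coordinate end of each T-box gene, in kb; grey bars are the genes, thin lines the windows searched, and larger markers stand for higher folds. At Tbx1, Tbx2 and Tbx3 all Hand1 summits lie left of the gene and all Foxf1 summits right of it.

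Closer to the genes the order of the lists was the same. Within 50 kb, 4 of the 9 genes had a Hand1 summit (6.06% of protein-coding genes) and 7 a Foxf1 summit (41.7%). Within 10 kb, 3 genes had a Hand1 summit (2.80%), namely Tbx2, Tbx3 and Eomes. A Foxf1 summit within 10 kb was listed for 5 genes (22.7%), namely Tbx2, Tbx4, Tbx6, Tbx18 and Eomes. The members were chosen with results of these data known, and no test of the list was made.

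Several members had more than 1 summit. In the Hand1 list Eomes had 5, Tbx2 and Tbx4 had 4, Tbx3 had 3 and Tbx1 had 1. Of all protein-coding genes, 0.868% had at least 5 Hand1 summits, 0.955% at least 4 1.36% at least 3 and 2.40% at least 2. In the Foxf1 list Tbx6 had 5, Tbx2 and Tbx4 had 4, Tbx1 had 3, Eomes had 2, and Tbx3, Tbx5 and Tbx18 had 1. At least 5 Foxf1 summits were listed for 5.37% of protein-coding genes, at least 4 for 9.78%, at least 3 for 17.6% and at least 2 for 31.0%. The genes with the most summits differed between the lists, Eomes for Hand1 and Tbx6 for Foxf1. For Hand1 this holds by summit only, since 4 of the 5 summits at Eomes lay in 1 region. By region, Tbx2 and Tbx4 had the most, with the same 4 separate Hand1 regions.

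**Figure D2:**
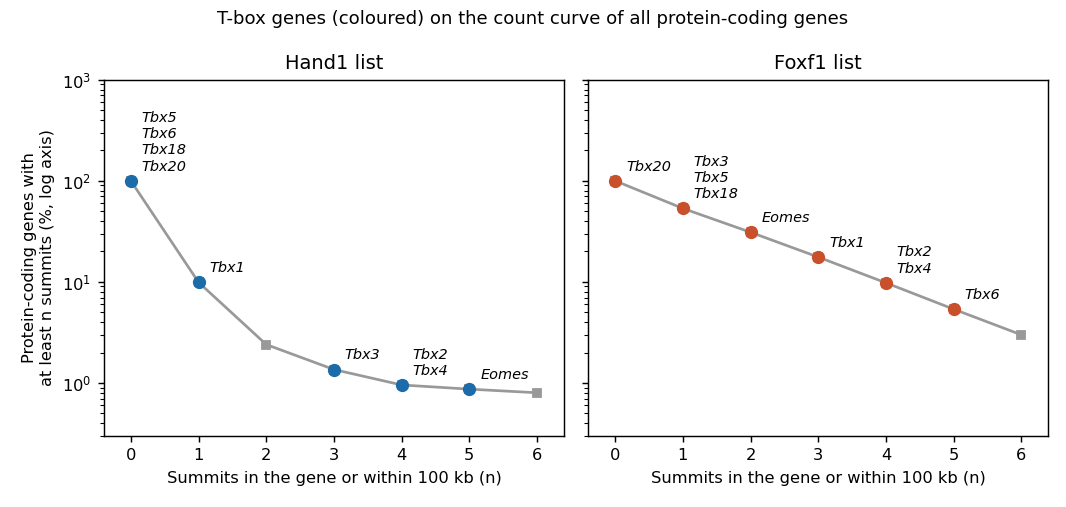
Percentage of all 21883 protein-coding genes (log axis) that have at least n summits in the gene or within 100 kb, for the Hand1 list (left) and the Foxf1 list (right); coloured points mark the T-box genes at their own count. Eomes, with 5 Hand1 summits of which 4 lie in 1 region, is at 0.868% and Tbx6, with 5 Foxf1 summits, at 5.37%.

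At Eomes (gene 13813, chromosome 9, 118478186 to 118486132, + strand) 4 of the 5 Hand1 summits formed 1 region just beyond the end of the gene. This region (118486302 to 118489333) was 3032 bp wide, ranked 6 by width among the 991 Hand1 regions, and was 1 of 12 with at least 4 summits. Runs of 3 summits within 3 kb held 231 of the 1134 Hand1 lines (20.4%), these 4 included. The summits of the region lay 0.626, 0.994, 1.58 and 1.78 kb past the gene end, inside the lncRNA gene Gm33460. The authors' fold enrichment at these summits was 6.34, 7.05, 5.12 and 7.65. Fold enrichment is the fragment count at the summit over the caller's background, on a linear scale. The inferred number of fragments was 17, 18, 22 and 20, which gives 95% Poisson counting intervals of 3.84 to 9.95, 4.33 to 10.9, 3.29 to 7.64 and 4.82 to 11.6 for the fold, with the background held fixed. The intervals overlap, and the difference in height between the 4 summits was not tested. The fifth Hand1 summit lay 62.0 kb before the gene in the lncRNA gene Platr11 (118415934 to 118416386), with a fold of 8.38 (interval 5.39 to 12.5).

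Foxf1 had 1 peak at each end of Eomes. The first (118478423 to 118479652) had its summit inside the gene, 1.05 kb from the start, and a fold of 8.62 (interval 6.14 to 11.8). It began 234 bp beyond the Eomes promoter stretch printed above, and lay over the promoter of the neighbouring Gm33408. The second (118489526 to 118490064) lay 3.76 kb past the gene end, over the Gm33460 promoter, with a fold of 7.86 (interval 5.24 to 11.4). Only 192 bp separated it from the 4-summit Hand1 region, the smallest gap between the lists at the 9 genes. The closest summits of the lists there were 1.98 kb apart.

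**Figure D3:**
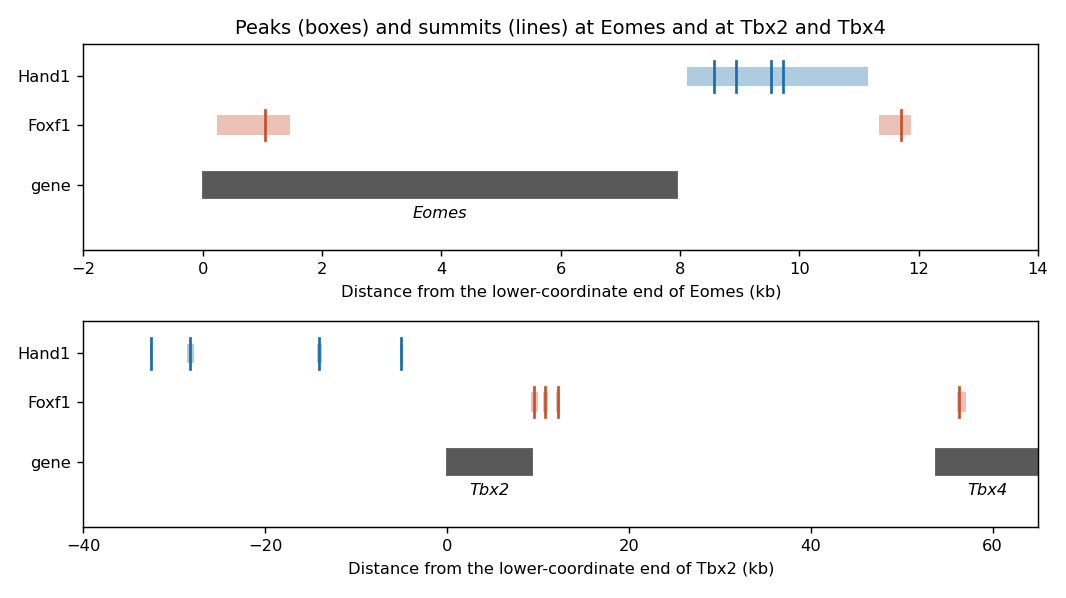
Peaks (boxes) and summits (vertical lines) of the Hand1 list (blue) and the Foxf1 list (orange) around Eomes (top) and around Tbx2 and Tbx4 (bottom), as distance in kb from the lower-coordinate end of Eomes or Tbx2; grey bars are genes, and Tbx4 runs on beyond the right edge. The 3032 bp Hand1 region and the second Foxf1 peak at Eomes lie 192 bp apart without overlap.

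At Tbx2 (gene 21385, chromosome 11, 85832615 to 85841948) and Tbx4 (gene 21387, 85886367 to 85916097) the sites of the factors lay in different stretches. The 4 Hand1 summits were spread over 27.5 kb on the lower-coordinate side of Tbx2, at 32.6, 28.3, 14.1 and 5.04 kb from it. All 4 lay inside the lncRNA gene 2610027K06Rik, and the first 3 also inside Bcas3, a protein-coding gene. Their folds were 5.45, 4.98, 10.7 and 6.06. The site at 14.1 kb (85818321 to 85818881) was the highest of the 4, with 47 inferred fragments against 15 to 17 at the others. Its fold interval, 7.92 to 14.1, began above the interval of the site at 28.3 kb (3.01 to 7.80) and overlapped those of the remaining 2. The highest site was picked after the values were seen, and the difference was not tested.

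The Foxf1 sites of this locus were a group of 3 and a single one. The 3 lay 0.225, 1.47 and 2.87 kb beyond the higher-coordinate end of Tbx2, with folds of 8.92, 7.76 and 5.45. Their intervals, 6.60 to 11.8, 5.53 to 10.6 and 3.76 to 7.67, overlapped. Runs of 3 summits within 3 kb were uncommon in the Foxf1 list and held 84 of its 5703 lines (1.47%), these 3 included. The fourth Foxf1 summit lay inside Tbx4, 2.51 kb from the lower-coordinate end (85888680 to 85889667, fold 8.89, interval 6.24 to 12.3). No Hand1 summit lay within 10 kb of Tbx4, the nearest being 58.8 kb away and 5.04 kb from Tbx2. The closest Hand1 and Foxf1 summits of the locus were 14.6 kb apart, with Tbx2 between them.

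Tbx3 (gene 21386, chromosome 5, 119670534 to 119684724) had 3 Hand1 summits, all on its lower-coordinate side, 56.9, 18.8 and 2.39 kb away. All lay inside the lncRNA gene Tbx3os1. The middle one (119651588 to 119652028) had a fold of 12.0 (interval 7.98 to 17.4), the highest of the 13 Hand1 lines at T-box genes, and ranked 311 of 1134 in its list. The others had folds of 7.47 (interval 4.97 to 10.8) and 6.62 (3.95 to 10.5). The 3 intervals overlap, and the difference between the folds was not tested. The only Foxf1 summit lay on the other side, 28.3 kb from Tbx3 and 83.5 kb from Tbx5 (119712524 to 119713214, fold 7.34, interval 4.89 to 10.6). The nearest Hand1 summit to Tbx5 (gene 21388, 119796514 to 119885220) was the one beside Tbx3, 128 kb away. No summit of either list lay inside Tbx5.

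Tbx1 (gene 21380, chromosome 16, 18580979 to 18590671, - strand) had 1 Hand1 and 3 Foxf1 summits, none within 10 kb. The Hand1 summit lay 47.7 kb from the gene on the downstream side, inside Gnb1l (18533137 to 18533361, fold 7.55, interval 4.50 to 12.0). The Foxf1 summits lay 24.4, 36.0 and 87.8 kb upstream, with folds of 6.88, 8.17 and 7.21. The first (18614860 to 18615253) was between genes and the second inside Septin5. All 3 were nearer to Gp1bb or Septin5 than to Tbx1, the third being 48.5 kb from Septin5. The Hand1 summit and the nearest Foxf1 summit were 81.8 kb apart.

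Tbx6 (gene 21389, chromosome 7, 126781483 to 126785548, + strand) had the most Foxf1 summits, 5, and its nearest Hand1 summit was 4.05 Mb away. Its window held 15 other protein-coding genes, the most of any member, and each of the 5 summits lay inside one of them. Those at Mapk3, which encodes a MAP kinase (126760442 to 126760911), and at the start of Ypel3 (126776709 to 126777254) had the highest folds of the 16 Foxf1 lines at T-box genes, 13.5 (interval 10.4 to 17.3) and 12.6 (interval 9.96 to 15.7). They held 62 and 76 inferred fragments and ranked 268 and 360 of 5703. The summit closest to Tbx6 lay 1.32 kb before its start, near the end of Ypel3 (126779536 to 126780525, fold 8.17, interval 5.92 to 11.0). Its peak ended 707 bp short of the Tbx6 stretch printed above. The 2 farther summits, in Slx1b and Tlcd3b, had folds of 7.71 and 7.97.

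Tbx18 and Tbx20 had few or no sites. Tbx18 (gene 76365, chromosome 9, 87702800 to 87731260, - strand) had 1 Foxf1 summit, 9.58 kb upstream of the gene, inside the lncRNA gene Gm36767 (87740387 to 87741104, fold 8.15, interval 5.47 to 11.7). Its nearest Hand1 summit was 789 kb away. Tbx20 (gene 57246, chromosome 9, 24720812 to 24774303, - strand) had its nearest Hand1 summit at 317 kb and its nearest Foxf1 summit at 393 kb.

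None of the 13 Hand1 and none of the 16 Foxf1 lines at T-box genes shared a base with a peak of the other list. In the whole lists 17.6% of Hand1 and 3.24% of Foxf1 lines did. A count of 0 allows a share of up to 23.1% of the Hand1 lines and 18.8% of the Foxf1 lines, by counting error only and if lines were independent. The 13 Hand1 lines form only 10 regions, since 4 of them share 1 region, so the Hand1 limit is too low. At this number of lines the shares at T-box genes were not separable from those of the lists. At the gene level, 31.4% of the 1674 protein-coding genes with summits of both lists had an overlapping pair, and 0 of the 5 such T-box genes did. These 5 genes are not independent, since Tbx2 and Tbx4 have the same lines. At Tbx1, Tbx2 and Tbx3 the factors were on opposite sides of the gene, with 8 of 8 Hand1 summits on the lower-coordinate side and 8 of 8 Foxf1 summits on the higher. This was not so at Tbx4, where 4 Hand1 and 3 Foxf1 summits shared the lower-coordinate side and 1 Foxf1 summit lay inside the gene, nor at Eomes, where Hand1 summits lay on both sides. The sides are by coordinate and not by strand. Tbx1 is on the - strand, and no annotated start was available here for Tbx2 and Tbx3. A shared coordinate side is therefore not shown to be a shared side of the gene start. The sides were compared after the positions had been seen, and were not tested, and summits of 1 locus are not independent.

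Nearly all Hand1 summits at these genes lay in lncRNA genes. A summit lay in an annotated lncRNA gene for 12 of the 13 Hand1 lines and for 1 of the 16 Foxf1 lines, where the shares in the whole lists were 13.2% and 11.6%. This count was chosen after its values were seen, and the 12 lines fall into only 4 lncRNA genes: Tbx3os1, 2610027K06Rik, Gm33460 and Platr11. For protein-coding genes the shares were close to those of the lists, with 4 of 13 Hand1 lines (30.8%, list 30.4%) and 8 of 16 Foxf1 lines (50.0%, list 49.1%). A T-box gene was the nearest protein-coding gene for 8 of the 13 Hand1 lines and 8 of the 16 Foxf1 lines.

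Folds at T-box genes lay within the range of their lists, most of them below the list's median for Hand1 and above it for Foxf1. The 13 Hand1 folds ran from 4.98 to 12.0 with a median of 7.05, and 3 of the 13 were above the list's median of 7.92. The 16 Foxf1 folds ran from 5.45 to 13.5 with a median of 8.06, and 12 of the 16 were above the list's median of 7.62. The inferred fragments per summit ran from 15 to 47 for Hand1 and from 20 to 76 for Foxf1. None of the lines had a high control level (at least 5 times the lowest of the list), against 11.7% of the Hand1 and 3.65% of the Foxf1 list. None lay within 500 bp of a tRNA gene, as 24.7% of the Hand1 and 0.298% of the Foxf1 lines did, and without such lines the median fold of the rest of the Hand1 list was 6.91. With 1 list per factor these values have no replicate error, and no test between the lists was made.

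**Figure D4:**
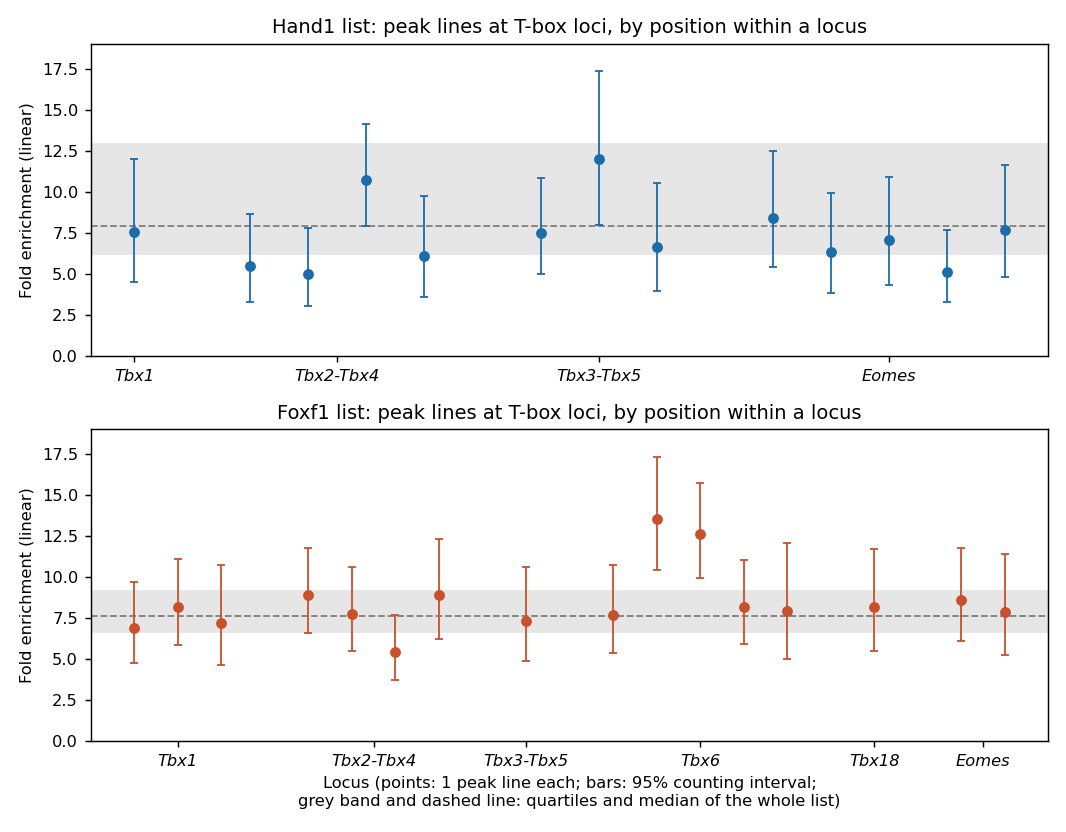
Fold enrichment (linear axis from 0) of each peak line at T-box loci in the Hand1 list (top) and the Foxf1 list (bottom), in order of position within a locus, with 95% counting intervals; the grey band and the dashed line are the quartiles and the median of the whole list. The Foxf1 folds of 13.5 and 12.6 at Tbx6 are the only ones whose intervals lie wholly above that list's upper quartile.

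Summits stood in groups at some loci. Joining summits not more than 10 kb apart, 8 of the 13 Hand1 lines (61.5%, exact interval 31.6% to 86.1%) were in a group of at least 2, where 46.5% of the whole list were. For Foxf1 it was 5 of 16 (31.3%, interval 11.0% to 58.7%) against 21.4%. Both intervals include the share of their list, but they treat the lines as independent, which lines of 1 group are not. The 8 Hand1 lines made up 3 groups and the 5 Foxf1 lines 2, so both intervals are too narrow. With overlapping lines joined into 1 region, 2 Hand1 groups remained. Groups of at least 3 held 4 of the 13 Hand1 lines (list 36.6%) and 3 of the 16 Foxf1 lines (list 5.63%). The Hand1 groups were the 4 summits at Eomes and a pair on either side of a 14.2 kb gap at Tbx2. The Foxf1 groups were the 3 summits at Tbx2 and a pair 3.15 kb apart at Tbx6.

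The other 8 T-box genes of the mouse (T, Tbx10, Tbx15, Tbx19, Tbx21, Tbx22, Tbr1 and Mga) had no Hand1 summit within 100 kb, and 3 of the 8 had a Foxf1 summit. By the same rule 9.90% of all protein-coding genes had a Hand1 summit and 53.3% a Foxf1 summit. T, the founding member of the family and a marker of nascent mesoderm, had 3 Foxf1 lines. Of these, 2 were summits of 1 peak inside the neighbouring gene T2 (chromosome 17, 8388356 to 8390195). The higher of the 2, 45.2 kb from T, had a fold of 25.6 (interval 20.2 to 32.1). It ranked 19 of 5703, above every line at the 9 members. Tbx21, an immune cell regulator, had 3 Foxf1 lines, 1 of them inside the gene, with folds of 6.46 to 7.57. Mga had 2, inside Tyro3 and Sptbn5 at 74.2 and 99.0 kb from Mga, with folds of 7.57 and 8.27. The difference between these genes and the 9 members was not tested.

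The 100 kb limit left few sites near the edge. Distances were taken for each gene, so a line can lie near the limit of one member and close to another. The farthest Hand1 line inside a window lay 86.3 kb from Tbx4 (fold 5.45), and this line was 32.6 kb from Tbx2. The nearest Hand1 line outside a window was the one beside Tbx3, 128 kb from Tbx5, and among lines assigned to none of the 9 genes it lay 189 kb from Eomes (fold 5.83). For Foxf1 the farthest line inside lay 87.8 kb from Tbx1 (fold 7.21), and the nearest line assigned to no member lay 121 kb from Eomes (fold 6.45). Strength limited the lists too, since no Hand1 line had a −log10 q-value under 5.01 and no Foxf1 line one under 10.0. Of the 13 Hand1 lines at T-box genes, 5 had a −log10 q-value of at least 10, and their median was 9.14. The median was 13.8 in the whole Hand1 list and 10.2 in the rest of the list without lines at tRNA genes. The difference was not tested. Peaks with several summits carry a letter for each in their names, and 1 Hand1 line (at Tbx3) and 4 Foxf1 lines (2 at Tbx6, 1 at Tbx18 and 1 at Eomes) had a letter whose companions were not listed. The counts of summits per gene and of groups are therefore of the lines listed, and other summits called in the same peaks are not among them. A site missing from a list is not shown to be unbound.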

How the data were processed

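Peaks of 2 ChIP-seq lists, 1 per factor, were analysed. Per the submitters' processing notes the build was mm10 and the tools included Bowtie2 2.3.4.3 and MACS2 2.2.7.1; the control, the cut-offs and any pooling of replicates are not given in the sources used here. In narrowPeak layout, the authors deposited a fold enrichment (a linear ratio), a −log10 p-value, a −log10 q-value and a score, which is 10 times the −log10 p-value without decimals. Each line counted as 1 site, with its coordinates written 1-based. Genes came from the RefSeq table of GRCm38.p6, and all 9 member symbols matched. Sequencing depth is not in the lists, so the fragments at a summit (k) and the control level (λ) were solved from fold = (k + 1)/(λ + 1) and the Poisson tail. A whole k met the deposited −log10 p-value within 0.005 for 100% of lines in both lists. Intervals are 95% and cover counting error only. The solver and the window counts were tested on simulated data. Overlap meant at least 1 shared bp. The members, gene lists and rules were chosen with earlier results of these data known; all 9 members are named, every line is given or summarised, and other T-box genes are named where a summit was listed. Alternatives changed the window, the q-value limit, the overlap and the grouping distance. Python 3.11.15, pandas 2.3.3 and scipy 1.17.1 were used.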

Additional observations from a re-analysis of the deposited data

How the results depend on the processing

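Of 74 alternatives over 10 results, 58 left the value within 1.5 times the reported count or, for the median rank by fold, within its 95% interval. Some of the 58 could not have moved, so their number does not measure robustness. No line at T-box genes had a high control level, and no Foxf1 line had a −log10 q-value under 10.0. The Hand1 list already had 1134 lines, and the 16 Foxf1 lines were already separate regions. Stricter overlap settings and narrower windows could only keep an overlap count of 0. Narrowing the window to 10 kb lowered the lines from 13 to 6 for Hand1 and from 16 to 9 for Foxf1, the genes with a peak from 5 to 3 and from 8 to 5, and the Hand1 groups of summits from 3 to 1. A −log10 q-value of at least 10 left 5 Hand1 lines, at 4 genes, and 0 Hand1 groups. Counting only lines whose nearest protein-coding gene is a member left 8 Hand1 lines at 2 genes (Tbx3 and Eomes) and 8 Foxf1 lines at 5 genes. Cutting the Foxf1 list to the 1134 lines of highest fold left 2 Foxf1 lines, both at Tbx6, and 1 gene. Taking peaks within 1 kb as shared gave 4 Hand1 lines and 1 Foxf1 line, all at Eomes, in place of 0. A grouping distance of 20 kb gave 4 Foxf1 groups in place of 2. The window, q-value, nearest-gene and list-length settings leave fewer lines by construction, while the 1 kb and 20 kb settings regroup the same lines. The alternative without lines at tRNA genes was chosen after the data had been seen, and moved the median rank of the Hand1 lines by fold from the 40.6 to the 52.3 percentile. The inferred fragments at a summit limit the precision of its fold, with 15 to 47 at the Hand1 lines and 20 to 76 at the Foxf1 lines. No paired analysis was possible because each factor came as 1 list, and no setting without a replicate could be run.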
